A study of Mus musculus with 9 samples.

Results

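The core spliceosome genes described here encode the protein parts of the small nuclear ribonucleoproteins (snRNPs) and the factors that work directly with them. They were followed across a mouse liver tumor, the liver beside it and wild-type liver. The list held 45 genes of 10 classes and left out Sart1, the gene that is altered in the tumor-bearing mouse. Each gene was represented by the probe set with exactly 1 gene symbol and the highest mean over the 9 arrays. By that rule 40 of the 45 genes had a value, out of 18194 genes measured in all, and all 40 lay above the limit for dim genes. Snrpa, Ppih, Snrpd1, Snrpd2 and Lsm5 were represented only by probe sets with several symbols and have no values here.

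RNA was taken from 3 pieces of each of 3 tissues of male C57Bl6 mice, 12 months old, untreated and on regular chow. The tumor pieces came from a hepatocellular carcinoma with severe steatosis (fat accumulation) in a SART1+/- mouse, which carries 1 altered copy of Sart1. The adjacent pieces came from the liver of that same SART1+/- mouse beside the tumor. The design text calls it uninvolved, while the sample labels give it cellular alteration and severe steatosis. The wild-type pieces came from the normal liver, with mild steatosis, of 1 wild-type mouse. With 2 animals in all, genotype, animal and steatosis cannot be told apart in the comparisons with wild-type liver, and a p-value here reflects how far pieces cut from a single liver or tumor differ. No array of a wild-type tumor was part of the comparison.

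The spliceosome removes introns from pre-mRNA. The U1 snRNP recognises the start of an intron and the U2 snRNP its branch site, helped by the U2AF proteins, after which the U4/U6 and U5 snRNPs join as one preformed particle, the U4/U6.U5 tri-snRNP. Rings of Sm proteins hold the U1, U2, U4 and U5 RNAs, a ring of LSm proteins holds the end of the U6 RNA, and the Prp19 complex stabilises the activated machine. SART1 protein belongs to the tri-snRNP, so several of the genes below encode its direct neighbours.

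The values are RMA log2 expression values, on which a difference of 1 is a 2-fold change. Array medians lay between 5.76 and 5.81. Over all probe sets, Pearson's r was 0.996 to 0.998 between arrays of one group, and between groups tumor and adjacent arrays gave 0.983 to 0.984, adjacent and wild-type arrays 0.966 to 0.969, and tumor and wild-type arrays 0.959 to 0.962. No 2 arrays held identical values. Within a group, the median SD of the 40 genes over 3 pieces was 0.08 in tumor, 0.05 in adjacent-labelled liver and 0.06 in wild-type liver, against 0.09, 0.08 and 0.08 for all genes tested. Calls rest on limma, with Benjamini-Hochberg adjustment over all 13888 genes tested and an adjusted p under 0.05. Because the tissue is bulk, fewer cells of a type and less RNA per cell cannot be told apart. Sart1 itself measured 7.77, 7.71 and 7.75 in tumor, 8.34, 8.39 and 8.38 in adjacent-labelled liver, and 8.35, 8.32 and 8.36 in wild-type liver. The fall in tumor was -0.60 against wild-type liver (adjusted p 2.61e-06), while adjacent and wild-type liver differed by 0.03 (95% interval -0.09 to 0.14, adjusted p 0.678). In the adjacent pieces, which are named as labelled throughout, the deposited level thus did not show a fall. Sart1 lies on chromosome 19, where the median of all genes tested was 0.27 in this comparison, and relative to that median Sart1 was lower by -0.23 (adjusted p 0.00467). Where on the transcript this probe set lies relative to the altered allele was not analysed here.

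By their chosen probe sets, all 40 core spliceosome genes differed by less than 2-fold in each comparison, with calls in both directions. A second probe set of Snrnp70 differed by 1.01 in tumor against adjacent-labelled liver (adjusted p 3.47e-06). In tumor against wild-type liver 17 of 40 were higher and 3 lower, where 33.2% of all genes tested were higher and 30.2% lower. In adjacent against wild-type liver 19 were higher and 6 lower, against 34% and 28.9% of all genes. With cyclic loess scaling between arrays, the split of this comparison was 18 higher and 11 lower. In tumor against adjacent-labelled liver 11 were higher and 11 lower, against 20.1% and 25.1% of all genes. As shares of the 40, these are 42.5% and 7.5%, 47.5% and 15%, and 27.5% and 27.5%. The called share in either direction among all genes was 63.4%, 63% and 45.2%, so being called was common. The median log2 difference of the 40 genes was 0.13 for tumor against wild-type liver, 0.19 for adjacent against wild-type liver and 0.07 for tumor against adjacent-labelled liver, beside -0.01 over all genes in each. The adjacent median was 0.05 with the mean of a gene's probe sets, where 13 members were higher, and 0.11 with cyclic loess. The median of tumor against adjacent-labelled liver was 0.03 without tumor replicate 1 and 0.04 without adjacent replicate 2. The comparisons share arrays pairwise, so they are not independent of one another.

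Per array, the median of the 40 genes relative to the wild-type mean was 0.21, 0.12 and 0.14 in tumor, 0.21, 0.17 and 0.17 in adjacent-labelled liver, and 0.01, -0.01 and 0.01 in wild-type liver. The tumor and adjacent arrays all lay above the wild-type arrays. The 12 measured tri-snRNP genes were also taken on their own, as U4/U6, U5 and tri-snRNP only proteins without the Sm and LSm rings. They gave 0.05, -0.04 and 0.05 in tumor, 0.00, -0.01 and 0.05 in adjacent-labelled liver, and 0.01, 0.00 and -0.01 in wild-type liver, so on this measure the groups overlapped. By its chosen probe set, no member was called with a difference of 2-fold or more in any of the 3 comparisons. Of all genes, 8.41%, 8.29% and 2.1% were called higher by that much, in the same order of comparisons. The shares called lower by that much were 4.59%, 3.22% and 2.94%. The pieces of the 2 tissues did not overlap for 22 higher and 4 lower members in tumor against wild-type liver, where this held for 35.9% and 33.2% of all genes. The counts were 22 and 8 in adjacent against wild-type liver (36.5% and 33% of all genes), and 15 and 13 in tumor against adjacent-labelled liver (24.5% and 28.5%).

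**Figure D1:**
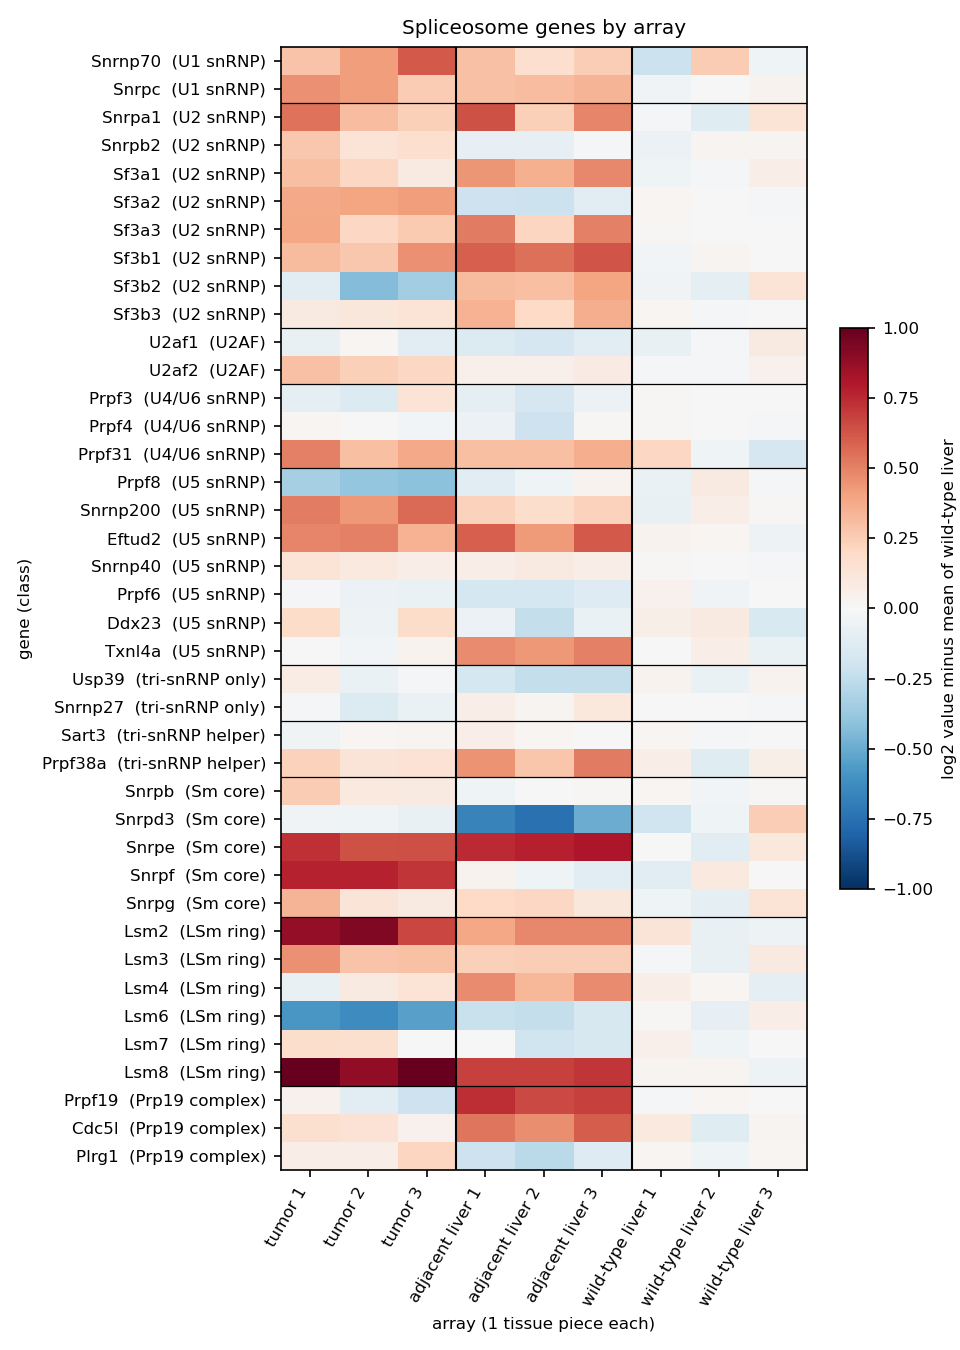
Each row is 1 of the 40 measured genes, ordered by class, and each column 1 of the 9 arrays, with tumor first, then adjacent and wild-type liver. Colour gives the log2 value minus the gene's mean over the wild-type arrays, on a scale that ends at 1 and -1, and Lsm8, Lsm2, Snrpe and Snrpf form the strongest positive cells in tumor and Lsm6 the strongest negative ones.

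Among the members with the largest differences were Lsm8, Snrpf and Snrpe, which were higher in tumor than in wild-type liver, Lsm6, which was lower, and Prpf19, which was higher in adjacent-labelled liver than in either other tissue. Their promoters are shown as examples from the members with large differences, and a part of the promoters in these differences was not tested. Each is a window from RefSeq on GRCm38.p6, written from 250 bases before to 50 bases after the annotated start on the gene's own strand. The window of Lsm8 is chr6:18848385-18848684 on the plus strand, that of Snrpf chr10:93589609-93589908 on the minus strand, that of Snrpe chr1:133610231-133610530 on the minus strand, that of Lsm6 chr8:78821103-78821402 on the minus strand, and the first of the 2 windows of Prpf19 chr19:10894981-10895280 on the plus strand. Capitals mark matches on either strand to CCGGAAG (the motif of ETS factors), CCAAT (NF-Y), GGGCGGG (Sp and KLF factors), or ACGTG and GCGTG (the core read by hypoxia-inducible factors).
Lsm8: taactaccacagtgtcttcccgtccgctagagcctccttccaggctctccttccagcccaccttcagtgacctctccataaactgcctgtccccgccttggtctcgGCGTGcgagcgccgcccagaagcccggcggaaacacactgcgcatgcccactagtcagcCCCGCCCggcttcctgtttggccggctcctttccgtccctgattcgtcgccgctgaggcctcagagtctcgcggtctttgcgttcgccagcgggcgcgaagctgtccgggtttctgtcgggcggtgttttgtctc
Snrpf: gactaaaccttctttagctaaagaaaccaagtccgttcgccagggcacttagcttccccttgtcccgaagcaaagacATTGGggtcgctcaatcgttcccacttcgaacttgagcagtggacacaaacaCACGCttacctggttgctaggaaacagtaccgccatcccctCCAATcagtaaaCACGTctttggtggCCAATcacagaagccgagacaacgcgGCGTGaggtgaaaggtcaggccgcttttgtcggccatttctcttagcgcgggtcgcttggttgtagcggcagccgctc
Snrpe: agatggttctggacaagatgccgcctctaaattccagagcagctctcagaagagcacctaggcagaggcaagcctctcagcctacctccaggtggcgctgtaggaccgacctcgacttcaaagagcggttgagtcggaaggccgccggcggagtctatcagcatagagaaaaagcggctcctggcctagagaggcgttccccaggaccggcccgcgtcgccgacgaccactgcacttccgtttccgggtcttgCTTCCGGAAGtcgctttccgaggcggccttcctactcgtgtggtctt
Lsm6: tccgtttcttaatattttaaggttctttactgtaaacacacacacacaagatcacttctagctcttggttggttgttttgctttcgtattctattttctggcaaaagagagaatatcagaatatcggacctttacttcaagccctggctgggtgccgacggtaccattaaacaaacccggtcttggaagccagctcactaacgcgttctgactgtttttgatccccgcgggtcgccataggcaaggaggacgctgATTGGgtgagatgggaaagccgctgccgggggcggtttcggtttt
Prpf19: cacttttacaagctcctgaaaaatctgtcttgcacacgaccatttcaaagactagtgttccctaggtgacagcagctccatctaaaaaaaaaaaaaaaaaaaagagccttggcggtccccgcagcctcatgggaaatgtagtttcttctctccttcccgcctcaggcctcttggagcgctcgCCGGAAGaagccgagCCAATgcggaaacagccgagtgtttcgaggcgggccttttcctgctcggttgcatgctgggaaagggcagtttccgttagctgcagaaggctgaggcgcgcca
The window of Snrpf held 3 CCAAT matches and 3 matches to the hypoxia-inducible factor core, 1 of them the ACGTG form. The window of Snrpe held CCGGAAG on both strands in 1 overlapping stretch just past the start, and that of Prpf19 held 1 CCGGAAG and 1 CCAAT. The window of Lsm6 held a single CCAAT, and that of Lsm8 1 GGGCGGG and 1 GCGTG. A match of letters is a description and does not show that a factor is bound.

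RefSeq windows were found for 35 of the 45 genes, 42 windows in all. CCGGAAG was in 40.5% of them, against 8.86% of all 32851 mouse windows and 15.2% of the 14186 windows of genes tested here. ACGTG or GCGTG was in 81%, against 43.8% of all windows and 58.1% of windows of genes tested. CCAAT was in 42.9%, against 37.4% and 36.9%, and GGGCGGG in 40.5%, against 25.6% and 42.6%. TATAAA was in 4.76%, against 13.6% and 8.23%. The six-letter E-box CACGTG, which contains ACGTG, was in 9.52%, against 7.15% and 9.46%. The members' windows had a median of 24 CpG pairs and 58.3% G or C, against 7 and 52.7% in all windows and 18 and 60% in those of genes tested. Windows of Ddx23, Eftud2, Lsm4, Sart3, Snrnp40, Snrpb, Snrpd1, Txnl4a, U2af2 and Usp39 were not used here.

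In the first comparison, tumor against wild-type liver, the genes with the largest rises were Lsm8, Lsm2, Snrpf and Snrpe, subunits of the LSm and Sm rings. Lsm8, the subunit that makes the LSm ring the nuclear, U6-bound form, measured 9.25, 9.11 and 9.25 in tumor, 8.91, 8.91 and 8.94 in adjacent-labelled liver, and 8.25, 8.25 and 8.17 in wild-type liver. The 3 tissues did not overlap, and the tumor rose by 0.98 over wild-type liver, a 1.97-fold level (SE 0.06, adjusted p 1.82e-07). Lsm2, another subunit of the ring, measured 8.74, 8.79 and 8.53 in tumor, 8.25, 8.34 and 8.34 in adjacent-labelled liver, and 7.99, 7.79 and 7.81 in wild-type liver. Its tumor values were again the highest, 1.77-fold the wild-type level (0.82, SE 0.08, adjusted p 8.31e-06). Lsm3 rose by 0.35 (adjusted p 0.00095). Lsm6 of the same ring went the other way, at 8.91, 8.86 and 8.95 in tumor, 9.27, 9.25 and 9.33 in adjacent-labelled liver, and 9.50, 9.41 and 9.56 in wild-type liver. Every tumor piece lay below every other piece, and the difference from wild-type liver was -0.58 (0.668-fold, adjusted p 1.08e-05). Lsm4 and Lsm7 were not called, with differences of 0.06 and 0.11. Over the 6 LSm genes measured the median was 0.23, with 3 higher and 1 lower.

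Among the Sm genes, Snrpe (SmE) and Snrpf (SmF), whose proteins sit side by side in the ring, rose in tumor. Snrpe measured 10.60, 10.51 and 10.52 in tumor, 10.62, 10.65 and 10.68 in adjacent-labelled liver, and 9.87, 9.77 and 9.98 in wild-type liver. Tumor and adjacent pieces were alike and all above wild type, and the tumor level was 1.6-fold the wild-type one (0.68, SE 0.07, adjusted p 6.56e-06). Snrpf measured 8.29, 8.29 and 8.24 in tumor, 7.56, 7.48 and 7.42 in adjacent-labelled liver, and 7.42, 7.62 and 7.53 in wild-type liver. Here only the tumor pieces were high, at 1.68-fold the wild-type level (0.75, SE 0.07, adjusted p 3.57e-06). Snrpb, Snrpg and Snrpd3, the other Sm genes measured, were not called, with differences of 0.14, 0.18 and -0.05. Dimmer probe sets gave other calls for 2 of them, with Snrpd3 at -0.57 and -0.66 (adjusted p 0.000468 and 2.68e-05) and Snrpg at 0.24 (adjusted p 0.00991), and the mean of the Snrpd3 probe sets fell by -0.43 (adjusted p 0.000256). The median over the 5 measured Sm genes was 0.18, with 2 called higher and 0 lower.

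Both measured U1 genes were higher in tumor. Snrpc, which steadies the pairing of U1 with the intron start, measured 9.97, 9.93 and 9.77 in tumor, 9.81, 9.82 and 9.85 in adjacent-labelled liver, and 9.48, 9.51 and 9.55 in wild-type liver. The wild-type pieces were the lowest without overlap, and the tumor rose by 0.38 (1.3-fold, SE 0.06, adjusted p 0.000387). Snrnp70 (U1-70K), which binds the first stem-loop of the U1 RNA, measured 8.40, 8.53 and 8.73 in tumor, 8.41, 8.28 and 8.36 in adjacent-labelled liver, and 7.90, 8.37 and 8.07 in wild-type liver. It rose by 0.44 (adjusted p 0.00796), with the widest wild-type spread of the 40 genes (SD 0.24). A second, nearly as bright probe set of Snrnp70 rose by 0.40 in the same comparison (adjusted p 0.00137). Its dimmer probe sets did not show the rise, at -0.14 (adjusted p 0.107) and 0.09 (adjusted p 0.455).

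Of the 8 U2 genes, 6 rose in tumor and 1 fell, with a median of 0.24, but only 2 were called higher without tumor replicate 1. Sf3a2, a subunit of the SF3A part that anchors U2 near the branch site, measured 10.90, 10.92 and 10.94 in tumor, 10.32, 10.31 and 10.42 in adjacent-labelled liver, and 10.54, 10.52 and 10.51 in wild-type liver. The tumor rose by 0.40 (1.32-fold, SE 0.05, adjusted p 9.24e-05). Sf3b1, the large SF3B subunit that closes around the branch site, rose by 0.35 (adjusted p 0.000661). Snrpa1 rose by 0.36, Sf3a3 by 0.28, Sf3a1 by 0.20 and Snrpb2 by 0.19. Sf3b2 measured 9.76, 9.43 and 9.52 in tumor, 10.18, 10.17 and 10.26 in adjacent-labelled liver, and 9.83, 9.77 and 10.00 in wild-type liver. It was the 1 U2 gene that fell, by -0.30 (adjusted p 0.0151), with tumor pieces that all lay below wild type but by a small margin. Sf3b3 was not called (0.11, adjusted p 0.126). Several of these calls depended on 1 array. Snrpa1 gave 0.28 without tumor replicate 1 (adjusted p 0.0708) and 0.30 without wild-type replicate 2 (0.0674), and Snrpb2 gave 0.16 without tumor replicate 1 or without wild-type replicate 1 (0.0544 and 0.0618). Sf3a3 gave 0.23 without tumor replicate 1 (0.0575), and Sf3b2 gave -0.23 without tumor replicate 2 or without wild-type replicate 3 (0.0628 and 0.0584). Sf3a1 lost its call without tumor replicate 1 (0.15, 0.106), tumor replicate 2 (0.20, 0.0649), wild-type replicate 1 (0.18, 0.0947) or wild-type replicate 2 (0.19, 0.0753).

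The U2AF pair, which reads the end of the intron, split. U2af2, the subunit that binds the pyrimidine tract, measured 10.89, 10.84 and 10.81 in tumor, 10.65, 10.65 and 10.68 in adjacent-labelled liver, and 10.58, 10.58 and 10.64 in wild-type liver. It rose by 0.25 (SE 0.05, adjusted p 0.00212). U2af1 was not called (-0.06).

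The tri-snRNP genes were divided more evenly, with 3 of 12 higher (25%) and 1 lower (8.33%) in tumor and a median of 0.00. Snrnp200, the Brr2 helicase that unwinds U4 from U6, measured 10.47, 10.39 and 10.52 in tumor, 10.19, 10.13 and 10.19 in adjacent-labelled liver, and 9.88, 10.02 and 9.97 in wild-type liver. It rose by 0.50 (1.42-fold, SE 0.06, adjusted p 3.95e-05). Eftud2, the GTPase of U5, measured 9.97, 9.99 and 9.83 in tumor, 10.08, 9.91 and 10.10 in adjacent-labelled liver, and 9.52, 9.50 and 9.43 in wild-type liver, and rose by 0.44 in tumor (adjusted p 0.000284). Prpf31, which bridges U4/U6 to U5, measured 7.62, 7.42 and 7.50 in tumor, 7.42, 7.42 and 7.48 in adjacent-labelled liver, and 7.33, 7.08 and 6.95 in wild-type liver, and rose by 0.39 (adjusted p 0.00365). Prpf8, the scaffold that cradles the catalytic centre, fell instead. It measured 10.50, 10.45 and 10.42 in tumor, 10.72, 10.79 and 10.87 in adjacent-labelled liver, and 10.77, 10.92 and 10.81 in wild-type liver. Only the tumor pieces were low, at 0.77-fold the wild-type level (-0.38, SE 0.06, adjusted p 0.00044).

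The remaining tri-snRNP genes were not called in tumor against wild-type liver, and most of their intervals were narrow. Prpf3 measured 7.23, 7.18 and 7.45 in tumor, 7.22, 7.15 and 7.26 in adjacent-labelled liver, and 7.33, 7.31 and 7.31 in wild-type liver, a tumor difference of -0.03 (95% interval -0.19 to 0.13). Its U4/U6 partner Prpf4 measured 8.22, 8.20 and 8.17 in tumor, 8.14, 7.99 and 8.21 in adjacent-labelled liver, and 8.21, 8.20 and 8.19 in wild-type liver, a tumor difference of 0.00 (-0.15 to 0.14). The tumor and wild-type pieces overlapped for both genes. Prpf6, which links U5 to U4/U6, measured 9.61, 9.57 and 9.56 in tumor, 9.45, 9.45 and 9.50 in adjacent-labelled liver, and 9.67, 9.59 and 9.62 in wild-type liver, a tumor difference of -0.05 (-0.16 to 0.07). Usp39, a deubiquitinase-like protein of the tri-snRNP, measured 9.14, 9.0 and 9.05 in tumor, 8.89, 8.83 and 8.83 in adjacent-labelled liver, and 9.10, 9.0 and 9.10 in wild-type liver, a tumor difference of -0.01 (-0.14 to 0.13). Snrnp27 measured 9.90, 9.78 and 9.85 in tumor, 9.98, 9.94 and 10.02 in adjacent-labelled liver, and 9.92, 9.92 and 9.90 in wild-type liver, and differed by -0.07 (adjusted p 0.275). Snrnp40, Ddx23 (the Prp28 helicase) and Txnl4a (Dim1) differed by 0.10, 0.11 and 0.00.

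The genes of factors that work on the tri-snRNP without staying in it were also not called in tumor. Sart3, which helps rejoin U4 to U6 after splicing, measured 7.82, 7.87 and 7.88 in tumor, 7.92, 7.87 and 7.85 in adjacent-labelled liver, and 7.87, 7.84 and 7.85 in wild-type liver. The 3 tissues overlapped, and tumor differed from wild-type liver by 0.01 (95% interval -0.11 to 0.12). Prpf38a, needed for activation, measured 7.76, 7.66 and 7.68 in tumor, 7.98, 7.81 and 8.05 in adjacent-labelled liver, and 7.60, 7.41 and 7.59 in wild-type liver, a tumor difference of 0.16 (adjusted p 0.0901). In the Prp19 complex, Prpf19, Cdc5l and Plrg1 differed by -0.09, 0.12 and 0.11 and none was called.

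**Figure D2:**
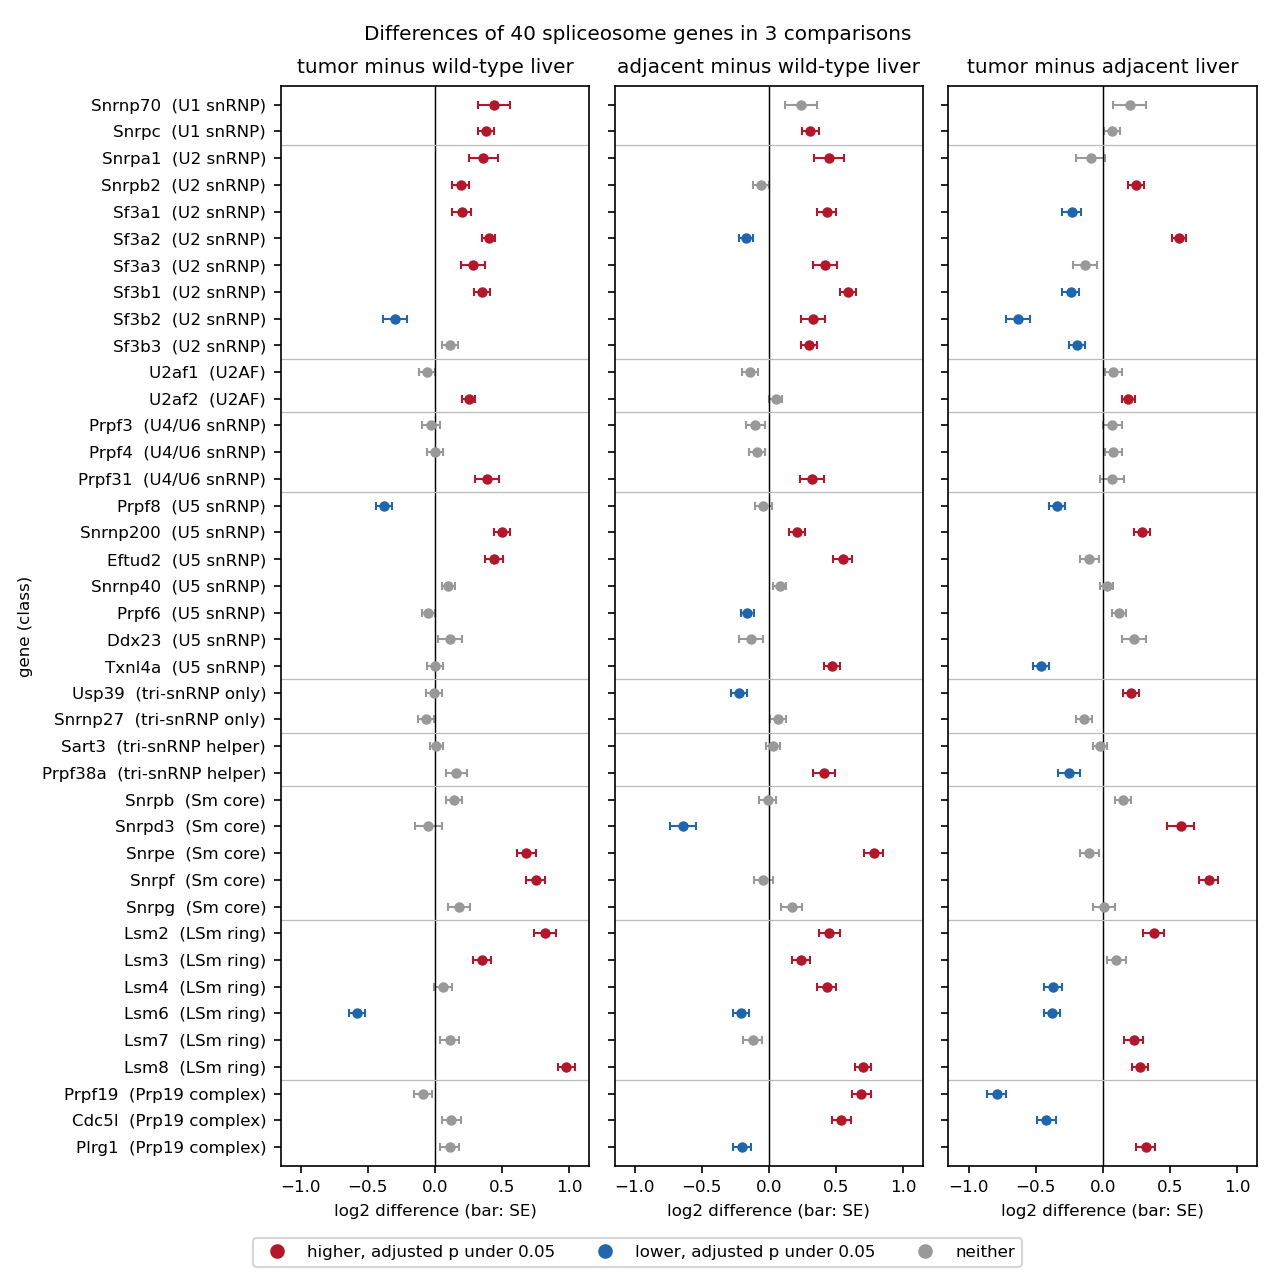
Each point is the log2 difference of 1 gene with its SE as a bar, in tumor minus wild-type, adjacent minus wild-type and tumor minus adjacent-labelled liver, with red for called higher, blue for called lower and grey for neither. Lsm8 reaches 0.98 and 0.70 in the first and second panels, and Prpf19 lies near 0 in the first panel, at 0.69 in the second and at -0.79 in the third.

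The second comparison, adjacent-labelled liver against wild-type liver, had more called members. Those that rose most were Snrpe, Lsm8, Prpf19, Sf3b1 and Eftud2. Snrpe was 1.71-fold the wild-type level (0.78, adjusted p 2.59e-06) and Lsm8 1.62-fold (0.70, adjusted p 2.9e-06), both from the pieces listed above. Prpf19, the ubiquitin ligase that names its complex, measured 11.39, 11.23 and 11.14 in tumor, 12.08, 12.00 and 12.03 in adjacent-labelled liver, and 11.32, 11.36 and 11.35 in wild-type liver. Only the adjacent pieces were high, at 1.62-fold the wild-type level (0.69, SE 0.07, adjusted p 8.5e-06). Its partner Cdc5l measured 9.52, 9.51 and 9.41 in tumor, 9.90, 9.83 and 9.97 in adjacent-labelled liver, and 9.46, 9.24 and 9.39 in wild-type liver, a 1.45-fold level in adjacent-labelled liver (0.54, adjusted p 7.52e-05). Plrg1, the third member of the complex measured, fell, at 8.97, 8.97 and 9.12 in tumor, 8.70, 8.64 and 8.78 in adjacent-labelled liver, and 8.93, 8.86 and 8.93 in wild-type liver (-0.20 in adjacent-labelled liver, adjusted p 0.0191).

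In the U2 class, 6 of 8 rose in adjacent-labelled liver and 1 fell, with a median of 0.37. Sf3b1 measured 10.77, 10.72 and 10.91 in tumor, 11.05, 11.00 and 11.08 in adjacent-labelled liver, and 10.42, 10.48 and 10.45 in wild-type liver. The adjacent pieces were the highest of the 3 tissues, 1.5-fold the wild-type level (0.59, SE 0.06, adjusted p 1.49e-05). A much dimmer probe set of Sf3b1 was lower in adjacent-labelled liver (-0.26, adjusted p 0.0223). Snrpa1 rose by 0.45, Sf3a1 by 0.43, Sf3a3 by 0.42, Sf3b2 by 0.33 and Sf3b3 by 0.30. Sf3a2 fell slightly, by -0.17 (adjusted p 0.02), and Snrpb2 was not called (-0.06). Of the U1 genes, Snrpc rose by 0.31 (adjusted p 0.00155). Snrnp70 was not called (0.24, adjusted p 0.104), and became so without wild-type replicate 2 (0.37, adjusted p 0.013), while its second probe set fell by -0.61 (adjusted p 7.45e-05). The 2 brighter probe sets of Snrnp70 thus gave opposite directions in adjacent-labelled liver. Its dimmer ones were not called there, at -0.17 (adjusted p 0.0553) and 0.08 (adjusted p 0.524).

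In the tri-snRNP, 4 of 12 genes rose in adjacent-labelled liver (33.3%) and 2 fell (16.7%), with a median of 0.01. Only 1 fell without adjacent replicate 1, adjacent replicate 2 or wild-type replicate 1. Eftud2 rose by 0.55 (1.46-fold, adjusted p 6.84e-05), Prpf31 by 0.32 (adjusted p 0.0114) and Snrnp200 by 0.21 (adjusted p 0.0132). Txnl4a, the thioredoxin-like U5 protein, measured 9.61, 9.58 and 9.64 in tumor, 10.08, 10.04 and 10.11 in adjacent-labelled liver, and 9.61, 9.67 and 9.54 in wild-type liver. The adjacent pieces stood apart, 1.38-fold above wild type (0.47, SE 0.06, adjusted p 4.48e-05). Prpf6 fell by -0.16 (adjusted p 0.0217) and Usp39 by -0.22 (adjusted p 0.00945). Prpf8 was not called (-0.04, 95% interval -0.18 to 0.10), nor were Prpf3 (-0.10, -0.27 to 0.06) and Prpf4 (-0.09, -0.23 to 0.05). Of the helpers, Prpf38a rose by 0.41 (adjusted p 0.000961) and Sart3 was not called (0.03, -0.09 to 0.14).

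Among the ring genes in adjacent-labelled liver, Snrpd3 (SmD3) fell the most of the 40 genes. It measured 10.12, 10.11 and 10.08 in tumor, 9.49, 9.41 and 9.66 in adjacent-labelled liver, and 9.96, 10.11 and 10.40 in wild-type liver. The adjacent pieces were all below the others, 0.644-fold the wild-type level (-0.64, SE 0.10, adjusted p 0.000364). Snrpe was the 1 Sm gene that rose. Of the 6 LSm genes, 4 rose, with a median of 0.34, as Lsm2 rose by 0.45, Lsm4 by 0.43 and Lsm3 by 0.24 beside Lsm8. Lsm6 fell by -0.21 (adjusted p 0.0125). Neither U2AF gene was called.

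The count of 6 lower members in adjacent-labelled liver was the least stable of the counts. It was 3 without adjacent replicate 1, adjacent replicate 2 or wild-type replicate 1. Sf3a2 gave -0.15 without adjacent replicate 1 or adjacent replicate 2 (adjusted p 0.0693 and 0.0551), -0.16 without wild-type replicate 1 (0.0612) and -0.17 without wild-type replicate 2 (0.0512). Prpf6 gave -0.16 without adjacent replicate 1 (0.0649), -0.15 without adjacent replicate 2 (0.0502) and -0.14 without wild-type replicate 1 (0.0797). Plrg1 gave -0.20 without adjacent replicate 1 (0.051), -0.17 without adjacent replicate 2 (0.0603), and -0.19 without wild-type replicate 1 or wild-type replicate 3 (0.0599 and 0.0515). Of the genes that rose, Snrnp200 lost its call without wild-type replicate 1 (0.17, 0.0581).

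**Figure D3:**
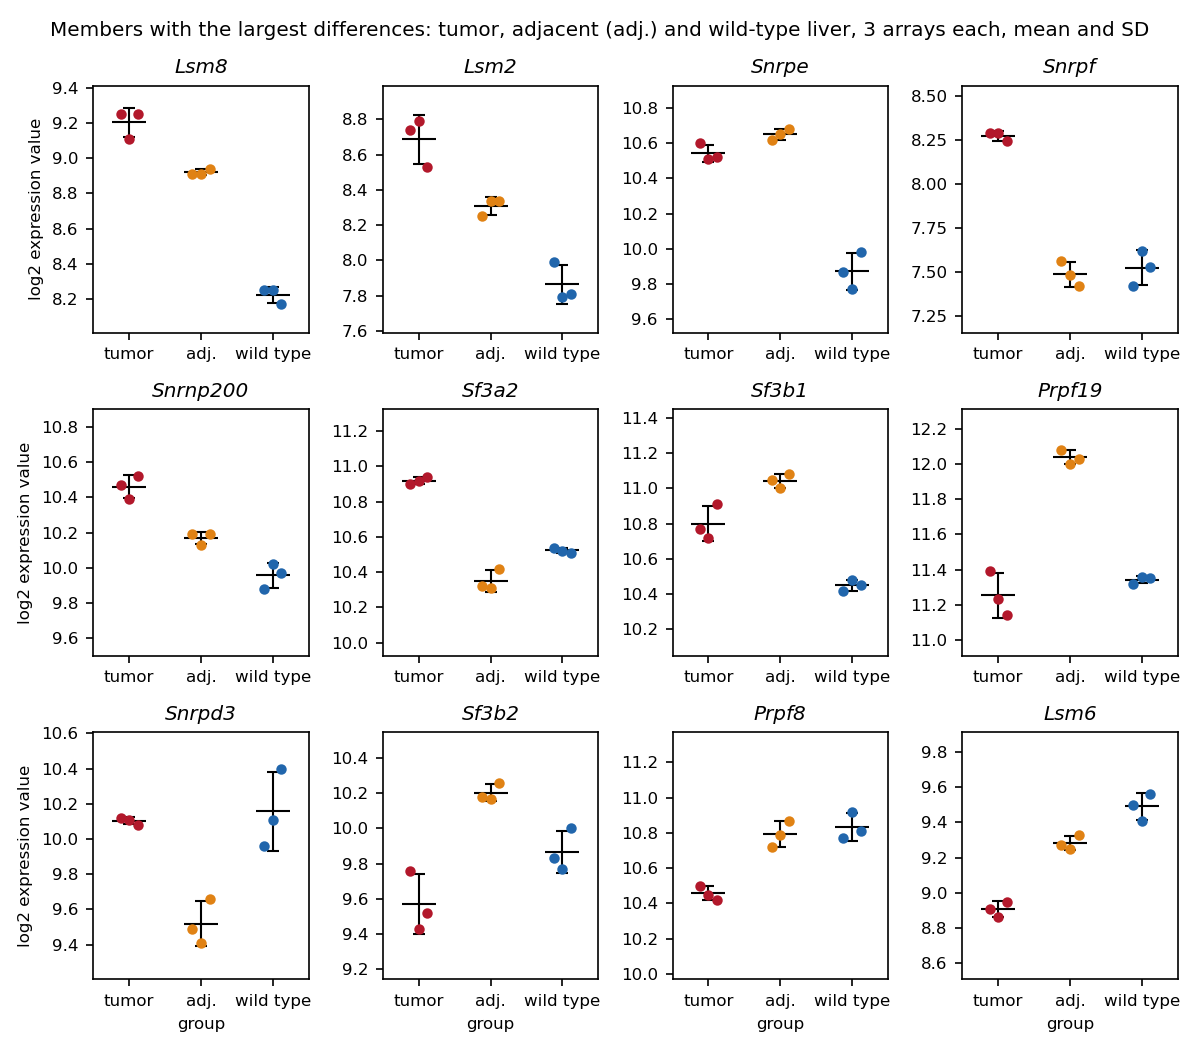
Each panel shows 1 gene, with its log2 expression value in the 3 tumor, 3 adjacent (adj.) and 3 wild-type pieces as points, and the mean and SD as bars, on axes that do not start at 0. Lsm8 steps down across tumor, adjacent and wild-type liver, Snrpf is high only in the tumor pieces, and Prpf19 only in the adjacent ones.

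The third comparison, tumor against adjacent-labelled liver of the same mouse, split the members evenly. Snrpf, Snrpd3 and Sf3a2 rose most, by 0.79 (1.73-fold, adjusted p 5.8e-06), 0.58 (1.5-fold, adjusted p 0.00101) and 0.57 (1.48-fold, adjusted p 1.43e-05). For Snrpd3 a dimmer probe set was called the opposite way (-0.34, adjusted p 0.0162), and the mean of its probe sets was not called (0.02, adjusted p 0.821). Prpf19 fell most, by -0.79 (0.58-fold, adjusted p 6.84e-06), followed by Sf3b2 at -0.63 (0.646-fold, adjusted p 0.000243), Txnl4a at -0.46 (0.725-fold, adjusted p 8.43e-05) and Cdc5l at -0.42 (adjusted p 0.000703). The pieces of tumor and adjacent-labelled liver did not overlap for any of these 7 genes.

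Among all genes tested, 20.1% were called higher and 25.1% lower in tumor against adjacent-labelled liver, and the class counts are to be read against these shares. By class, 2 U2 genes rose (Sf3a2, and Snrpb2 by 0.25) and 4 fell, with Sf3b2 followed by Sf3b1 at -0.24, Sf3a1 at -0.23 and Sf3b3 at -0.19. The 4 were 2 without tumor replicate 2, adjacent replicate 1 or adjacent replicate 3. Neither U1 gene was called, with Snrnp70 at 0.20 and Snrpc at 0.07, although the second probe set of Snrnp70 rose by 1.01 (adjusted p 3.47e-06). Of the 12 tri-snRNP genes, 2 rose and 2 fell (16.7% each), with a median of 0.07, and 1 rose without tumor replicate 1. Snrnp200 rose by 0.29 and Usp39 by 0.21, and Txnl4a and Prpf8 fell, Prpf8 by -0.34 (0.793-fold, adjusted p 0.00154). Snrpf and Snrpd3 rose among the Sm genes. Lsm2, Lsm8 and Lsm7 rose in the LSm ring, by 0.38, 0.28 and 0.23, while Lsm6 and Lsm4 fell by -0.38 and -0.37. U2af2 rose by 0.19, Plrg1 by 0.32, and Prpf38a fell by -0.25.

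Several of the smaller differences between tumor and adjacent-labelled liver were not called once an array was left out. Lsm7 gave 0.19 or 0.20 without tumor replicate 1, tumor replicate 2, adjacent replicate 2 or adjacent replicate 3 (adjusted p 0.0954, 0.0943, 0.0909 and 0.0915). Sf3a1 gave -0.23 without tumor replicate 2 (0.0563), -0.17 without tumor replicate 3 (0.0787), -0.22 without adjacent replicate 1 (0.0667) and -0.20 without adjacent replicate 3 (0.0821). Sf3b3 gave -0.17 without tumor replicate 1 (0.0736), -0.19 without tumor replicate 2 (0.0612), -0.17 without adjacent replicate 1 (0.0968) and -0.16 without adjacent replicate 3 (0.0954). Prpf38a gave -0.23 without tumor replicate 2 or adjacent replicate 1 (0.0781 and 0.0744), -0.24 without tumor replicate 3 (0.0601) and -0.20 without adjacent replicate 3 (0.0935). Usp39 gave 0.18 without tumor replicate 1 (0.0547). Ddx23 (0.23, adjusted p 0.0605) passed without tumor replicate 2 (0.31, 0.0239).

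Set side by side, 6 of 8 U2 genes were higher than in wild-type liver in tumor and 6 of 8 in adjacent-labelled liver. The tumor count of U2 rested on single arrays, with 2 of 8 without tumor replicate 1 and 4 of 8 without wild-type replicate 1 or wild-type replicate 2, while the adjacent count stayed at 6 without any 1 array. The adjacent calls of Sf3a1, Sf3b2 and Sf3b3 were, however, each lost under some other alternative processing. Of the 2 U1 genes, 2 were higher in tumor and 1 in adjacent-labelled liver, and of the 12 tri-snRNP genes 3 and 4. Among all genes tested, 33.2% were higher in tumor and 34% in adjacent-labelled liver, beside 25% and 33.3% of the tri-snRNP genes. Without wild-type replicate 2 both U1 genes were higher in adjacent-labelled liver, and the tri-snRNP count in tumor stayed at 3 without any 1 array. The medians were 0.41 for U1, 0.24 for U2 and 0.00 for the tri-snRNP in tumor against wild-type liver, and 0.27, 0.37 and 0.01 in adjacent against wild-type liver. In tumor against adjacent-labelled liver they were 0.14, -0.16 and 0.07. The tri-snRNP set leaves out the LSm ring, which holds the U6 RNA of that particle. Against wild-type liver, 3 of the 6 measured LSm genes were higher and 1 lower in tumor, with a median of 0.23. In adjacent-labelled liver 4 were higher and 1 lower, with a median of 0.34. These are counts and medians over few genes that share arrays, and the difference between classes was not tested. The genes that were called in no comparison of the main fit were U2af1, Prpf3, Prpf4, Snrnp40, Ddx23, Snrnp27, Sart3, Snrpb and Snrpg.

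**Figure D4:**
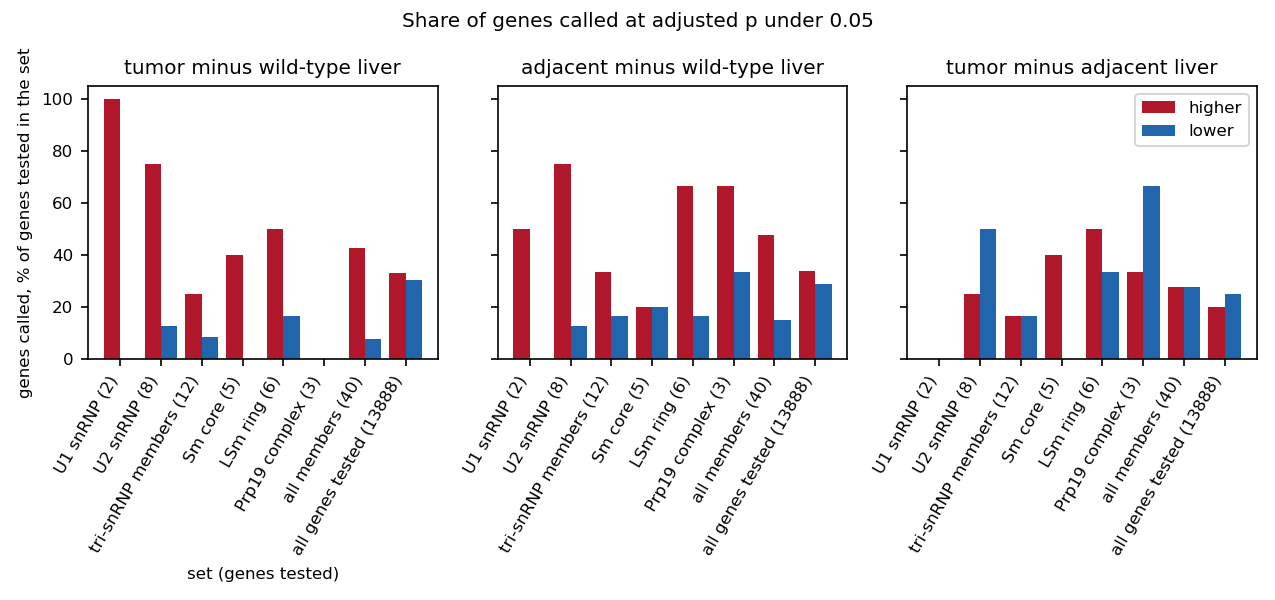
Bars give the percentage of measured genes in each class called higher and called lower in the 3 comparisons, on axes that start at 0, beside all 40 members and all genes tested. The U2 bars for higher genes reach 6 of 8 in both comparisons with wild-type liver, and the tri-snRNP bars reach 25% and 33.3%.

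On 3 chromosomes, the members and the bulk of the other genes shifted the same way in tumor against adjacent-labelled liver. The median difference of all genes tested was -0.35 on chromosome 8, -0.34 on chromosome 19 and 0.25 on chromosome 10, and these 3 chromosomes were picked out after their values were seen. Sf3b3, Lsm4 and Lsm6 lie on chromosome 8, Sf3b2 and Prpf19 on chromosome 19, and Sf3a2, Snrpd3, Snrpf and Lsm7 on chromosome 10. All 9 were called with the sign of their chromosome, 4 of the 11 higher and 5 of the 11 lower members. Of all genes tested on these chromosomes, 61.3% were called lower on chromosome 8, 61.4% lower on chromosome 19 and 52% higher on chromosome 10. Over all chromosomes, 28 of 40 members and 17 of the 22 called ones had the sign of their chromosome's median in this comparison, and in tumor against wild-type liver 6 of these 9 did. Taken relative to the chromosome median, 17 of the 22 calls in this comparison were kept, and Sf3b1, Sf3b3, Lsm4, Lsm6 and Lsm7 were lost. Snrpf kept a difference of 0.51 and Prpf19 one of -0.43. Against wild-type liver 19 of 20 tumor calls and 20 of 25 adjacent calls were kept. On this scale Sf3b3, U2af1, Snrpg, Lsm4 and Plrg1 gained a call in tumor, and U2af1, Ddx23, Snrnp27 and Snrpg in adjacent-labelled liver. Between tumor and adjacent-labelled liver, Snrpc and U2af1 gained one. Lsm8 on chromosome 6 stood at 0.98 while its 50 nearest tested genes had a median of -0.21 in tumor, and relative to its chromosome it rose by 1.08. Around the other large tumor rises, the nearest genes had medians of 0.37 (Lsm2), 0.13 (Snrpf) and 0.03 (Snrpe). In adjacent against wild-type liver these medians were 0.21 around Snrpe, -0.21 around Lsm8, 0.29 around Prpf19, 0.40 around Sf3b1 and -0.04 around Eftud2. The part of these chromosome shifts in the members' results was not tested beyond these values.

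**Figure D5:**
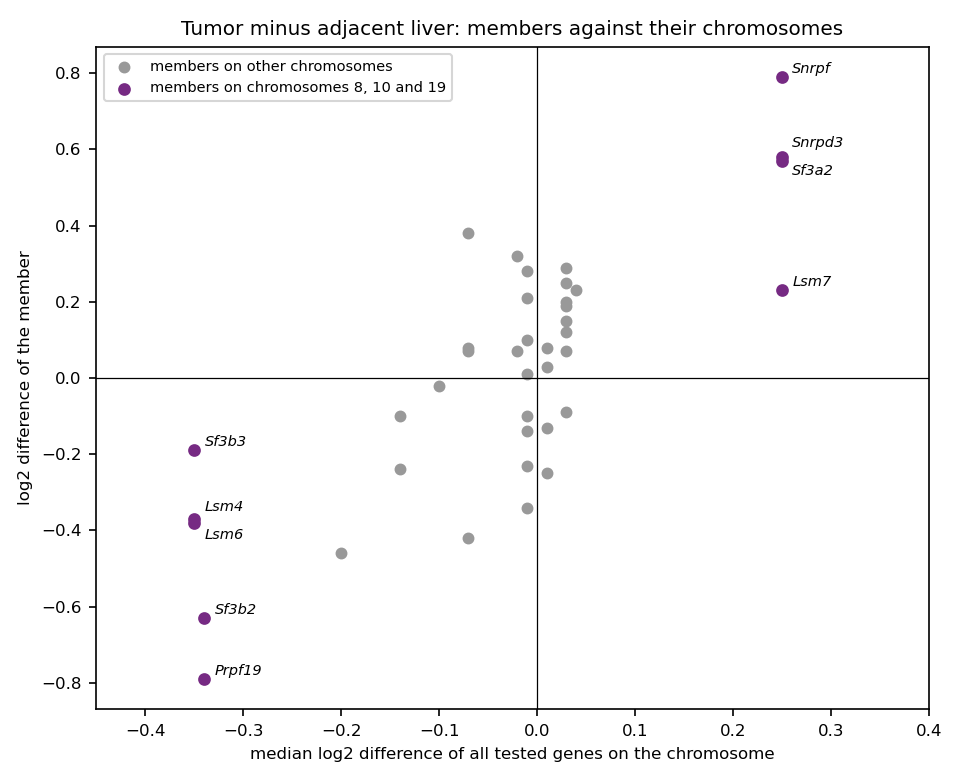
Each point is 1 of the 40 genes, with the median log2 difference of all tested genes on its chromosome on the horizontal axis and its own log2 difference on the vertical axis, tumor minus adjacent-labelled liver. The 9 named genes on chromosomes 8, 10 and 19 lie in the lower left and upper right, with chromosome medians of -0.35, 0.25 and -0.34.

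The other probe sets of a called gene mostly had the same sign in tumor against wild-type liver, though not all were called. Of the 20 called members, 11 had another probe set bright enough to test, and for all 11 at least 1 was called in the same direction. Among the rest, probe sets of Snrnp70 (-0.14), Sf3a1 (-0.08), Sf3b1 (-0.05) and Eftud2 (-0.11) had the opposite sign without being called. In adjacent against wild-type liver 16 of 25 had one, and for 11 of them at least 1 was called the same way. Sf3b1 is among these 11 (0.47, adjusted p 0.0085), but it also had 1 called the opposite way (-0.26, adjusted p 0.0223). In tumor against adjacent-labelled liver 13 of 22 had one. At least 1 was called the same way for 6 genes and the opposite way for 2, Sf3b1 and Snrpd3. Of the members not called, another probe set was called for 2 of 13, 2 of 8 and 3 of 11 in the 3 comparisons. Snrpd3 has its values given above, and for Sf3b1 the chosen one fell by -0.24 while another rose by 0.22 (adjusted p 0.00578). The directions of these 2 genes between tumor and adjacent-labelled liver therefore depend on the probe set, and with the most variable probe set Sf3a1 and Sf3b3 stood at 0.27 and 0.01 in place of -0.23 and -0.19.

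Genes of the wider splicing machinery were called in both directions, to be read against the shares of all genes called, 33.2% higher and 30.2% lower in tumor and 34% and 28.9% in adjacent-labelled liver. Of 18 other U1, U2 and branch site factors tested, 9 were higher and 2 lower in tumor, and 10 higher and 5 lower in adjacent-labelled liver, against wild-type liver. Ddx39b, the helicase UAP56 that helps U2 bind, rose by 0.96 in tumor and 0.76 in adjacent-labelled liver, and Puf60, a U2AF-related factor, by 0.77 and 0.58. Sf3b5, a small SF3B subunit, fell by -0.50 in adjacent-labelled liver. Of 19 snRNP assembly genes, 7 were higher (36.8%) and 5 lower (26.3%) in tumor, near those shares, and 8 higher and 4 lower in adjacent-labelled liver. Smn1, the protein of the complex that loads Sm rings, rose by 0.79 in tumor, Gemin5 by 0.65 and Gemin8 by 0.93, while Gemin2 fell by -0.97. Of 7 minor spliceosome genes, 2 were higher and 3 lower in each comparison with wild-type liver, with Snrnp25 up by 0.75 and Snrnp48 down by -0.48 in tumor. Of 29 later-acting factors, 8 were higher and 4 lower in tumor and 13 higher and 7 lower in adjacent-labelled liver, led by Dhx35 at 0.73 and 0.82.

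Regulators that choose splice sites were measured beside them. Of 19 genes of hnRNP and other RNA-binding proteins, 9 were higher and 1 lower in tumor and 13 higher and 1 lower in adjacent-labelled liver, with Khdrbs1 (Sam68) up by 0.73 and 0.91. Of 19 genes of SR and related proteins and their kinases, 7 were higher and 3 lower in tumor and 6 higher and 2 lower in adjacent-labelled liver, with the SR kinase Srpk1 up by 0.62 and 0.73. Of 9 tissue-regulated splicing factors, 2 were higher and 5 lower in tumor. Rbfox2 rose by 1.28 in tumor and 1.06 in adjacent-labelled liver, and Esrp2, an epithelial factor of adult liver, fell by -0.85 in tumor. Of 7 cytoplasmic LSm and Sm-like genes, 1 was higher and 3 lower in tumor, and Lsm1, which replaces Lsm8 in the cytoplasmic ring, fell by -0.25 there.

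Some markers of the cells in the pieces also differed between the tissues. Their counts are to be read against the shares of all genes called. With wild type as the reference, these shares were 33.2% up and 30.2% down for tumor, and 34% and 28.9% for adjacent-labelled liver. Hepatocyte markers were present throughout, with summed linear levels of 134000 to 136000 over 9 genes in tumor, 132000 to 134000 in adjacent-labelled liver and 136000 to 138000 in wild-type liver. Of these 9, 2 were higher and 4 lower in tumor and 2 higher and 3 lower in adjacent-labelled liver, and the sums include Alb, whose log2 values of 14.43 to 14.51 lie near the top of the scale. Of 13 cell cycle genes all 13 were higher in tumor and all 13 in adjacent-labelled liver, with sums of 4480 to 4860 in tumor, 4930 to 7190 in adjacent-labelled liver and 2330 to 2400 in wild-type liver. Of 13 leukocyte markers 10 were higher in tumor and 9 in adjacent-labelled liver, with sums of 7960 to 9740, 7870 to 8700 and 3940 to 4330 for tumor, adjacent and wild-type liver. Of 10 stellate and matrix markers 7 were higher and 1 lower in tumor and 6 higher and 3 lower in adjacent-labelled liver, with sums of 11000 to 16000, 10300 to 12600 and 6570 to 9200 in that order of tissues. Of 8 endothelial markers 2 were higher and 1 lower in tumor and 3 higher and 3 lower in adjacent-labelled liver, and of 5 cholangiocyte markers 2 were higher in each. Their sums were 2890 to 3540, 2870 to 3170 and 2630 to 2940, and 509 to 526, 491 to 548 and 408 to 435. No RMA value is 0, so no marker can be said to be absent. RNA quality probes differed too, with the 3' minus 5' log2 difference of Actb at 0.54 to 0.69 in tumor, 0.82 to 0.91 in adjacent-labelled liver and 0.83 to 0.88 in wild-type liver, and that of Gapdh at 0.20 to 0.23, 0.15 to 0.18 and 0.26 to 0.29 for tumor, adjacent-labelled and wild-type liver. The part of these cell markers and RNA quality probes in the spliceosome results was not tested.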

How the data were processed

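Total RNA from 9 pieces of liver tissue was hybridised to 1-colour Affymetrix 3' arrays with 45101 probe sets, 1 array per piece, after labelling with a 3' IVT kit, per the labels. The deposited log2 values come from the authors, whose submitters' processing notes name RMA and, as its software, Affymetrix Expression Console 1.3.1.187. Read as a power of 2, the highest value is 23383. RMA gives arrays the same distribution, so a shift of most genes in one direction would not show.

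Of the probe sets, 34958 had 1 symbol, 932 several and 9211 none. Only those with 1 symbol were used, and each gene was represented by its brightest one. Genes above the 40th percentile of an array (5.16 to 5.26) on at least 3 of 9 arrays were tested, 13888 in all. limma 3.58.1 in R 4.3.3 fitted 1 mean per group over all arrays (lmFit and eBayes, 6 residual degrees of freedom), with Benjamini-Hochberg adjustment and calls at an adjusted p under 0.05. The fit was tested on simulated data. A list is given by its counts and median, with no test. Replicates were not paired: deviations of same-numbered arrays correlated at -0.113 to 0.049 between tumor and wild-type liver, -0.0379 to 0.138 between adjacent and wild-type liver, and 0.0397 to 0.0885 between tumor and adjacent-labelled liver.

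Values per array are given, in each comparison, for the 5 members with the largest called increase and the 5 with the largest called decrease, for the member of each class with the smallest adjusted p in tumor against wild-type liver, and always for Prpf3, Prpf4, Prpf6, Prpf8, Prpf31, Sart3 and Usp39. Of each other list, up to 3 genes per direction with the smallest adjusted p could be named. Values of Snrnp70 per array fall outside this rule and were added after they were seen. The members and lists were chosen with earlier results of these data known. Precision is limited by having only 3 arrays in a group.

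Alternatives covered the threshold, the filter, the probe set of a gene, the scaling between arrays, the variance model, array weights, the groups in the fit, a replicate block and each array left out in turn. Values relative to each chromosome's median were added after seeing the data. The sequences are from RefSeq, assembly GRCm38.p6.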

Additional observations from a re-analysis of the deposited data

How the results depend on the processing

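With a call that also needs a log2 difference of at least 1, limma called 0 members higher and 0 lower in each of the 3 comparisons, beside 21, 25 and 25 members at an unadjusted p under 0.05 in tumor against wild-type, adjacent against wild-type and tumor against adjacent-labelled liver. Without any 1 array, the counts of higher and lower members ranged from 13 to 18 and 2 to 3 in tumor against wild-type liver, 18 to 20 and 3 to 6 in adjacent against wild-type liver, and 9 to 12 and 8 to 12 in tumor against adjacent-labelled liver. The medians over the members then ranged from 0.12 to 0.17, 0.14 to 0.22 and 0.03 to 0.09. With the mean of a gene's probe sets, 5 members were lower in tumor against wild-type liver and in adjacent-labelled liver 13 were higher and the median was 0.05. With cyclic loess, 11 members were lower in adjacent-labelled liver and the median was 0.11. Array weights gave a median of 0.22 there. Relative to the chromosome median, an alternative chosen after seeing the data, 7 members were lower in tumor against adjacent-labelled liver, and the medians were 0.18 in tumor and 0.16 in adjacent-labelled liver against wild-type liver. Directions turned for Snrnp70 in adjacent-labelled liver with the most variable probe set (-0.61). In tumor against adjacent-labelled liver they turned for Sf3a1 (0.27 with the most variable probe set and 0.02 with the mean of probe sets) and Sf3b3 (0.01 with the most variable probe set). Relative to the chromosome median they turned for Sf3b3 (0.12) and Lsm7 (-0.05) in tumor against adjacent-labelled liver, and for Sf3a2 (0.01) and Sart1 (-0.23) in adjacent against wild-type liver. The cause was not tested. A replicate block gave 18 higher and 3 lower members in tumor against wild-type liver, 19 and 6 in adjacent against wild-type liver and 11 and 11 in tumor against adjacent-labelled liver. Over all these alternatives at the same threshold, 13 of 20, 13 of 25 and 12 of 22 calls were kept. Those lost in at least 1 of them were Prpf31, Sf3a1, Sf3a3, Sf3b2, Snrpa1, Snrpb2 and Snrpc in tumor against wild-type liver, Lsm3, Plrg1, Prpf31, Prpf6, Sf3a1, Sf3a2, Sf3b2, Sf3b3, Snrnp200, Snrpc, Txnl4a and Usp39 in adjacent against wild-type liver, and Lsm4, Lsm6, Lsm7, Prpf38a, Sf3a1, Sf3b1, Sf3b3, Snrpb2, Snrpd3 and Usp39 in tumor against adjacent-labelled liver.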
